A study of Homo sapiens with 36 samples.

Results

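The TET1 peak list made after MBD2 siRNA was laid directly over the list made after MBD3 siRNA. A peak interval counted as matched when it shared at least 1 bp with an interval of the other list. The loci fell into 3 sets: shared, siMBD2-only and siMBD3-only. The siMBD2 list held 284 distinct intervals and the siMBD3 list 188. Together these are 472 of the 60933 intervals in the 6 lists of the series. All cells were HEK293T, a human embryonic kidney line that carries the SV40 large T antigen, transfected with siRNA. The siMBD2 cells were given an siRNA named for MBD2 and the siMBD3 cells an siRNA named for MBD3. The siNC, siCHD3, siCHD4 and siCHD5 groups are used here only for their own TET1 peaks. As siNC alone is not named for a gene, its list served as the control. The protocol speaks of co-transfection and names no partner, and each sample is labelled with 1 siRNA. Chromatin was pulled down with an antibody to TET1, and the siMBD2 and siMBD3 groups comprise 12 of the 36 libraries: 3 pull-down and 3 input libraries each. Each group has 1 peak list, which its name ties to replicates 1 to 3 together. No spread between replicates could be computed, so no difference below was tested against culture error. The number of siRNA sequences per target, the remaining MBD2 and MBD3 protein and the read totals were not analysed here.

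MBD2 and MBD3 are alternative subunits of the NuRD complex, which joins nucleosome remodelling to histone deacetylation. A NuRD complex holds either MBD2 or MBD3, not both. MBD2 binds methylated CpG through its methyl-CpG-binding domain, while mammalian MBD3 binds methylated CpG poorly. TET1 oxidises 5-methylcytosine, the first step of active demethylation, and is known for binding CpG-rich promoters through its CXXC domain. The comparison asks whether loss of either paralog leaves TET1 peaks at the same places.

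Shared loci were the minority on the autosomes, and the longer siMBD2 list held most of the others. On chromosomes 1 to 22 there were 307 loci: 93 shared, 155 siMBD2-only and 59 siMBD3-only. The siMBD3 list matched 98 of 253 siMBD2 intervals, or 38.7% (95% exact Clopper-Pearson interval 32.7 to 45.0, which like all intervals here covers counting error only). The siMBD2 list matched 100 of 159 siMBD3 intervals, or 62.9% (54.9 to 70.4). These shares are the background of the comparison itself. A deposited interval with several summits appears once per summit. Counted by summit, 144 of 307 siMBD2 summits (46.9%) and 152 of 214 siMBD3 summits (71.0%) lay in matched intervals, which left 163 and 62 summits outside. The siMBD2 intervals covered 105 kb and the siMBD3 intervals 68.2 kb. Of these bases 43.4 kb were common to both lists, 33.5% of their union.

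The sharing differed by place. A pair of dense domains on chromosomes 11 and 8, each a chain of at least 10 loci with gaps of no more than 250 kb, held 94 loci. In the domains 43 loci were shared, 40 were siMBD2-only and 11 siMBD3-only. A second group lay in the peak-poor stretch of each chromosome, the longest gap between siNC peaks of fold 4 or more with 1 Mb on either side, which lies around the centromere on many chromosomes. These stretches held 50 loci, of which 31 were shared, 11 siMBD2-only and 8 siMBD3-only. The remaining sequence of chromosomes 1 to 22 held 163 loci, and there only 19 were shared, against 104 siMBD2-only and 40 siMBD3-only. The shared part was thus 45.7% of loci in the dense domains (35.4 to 56.3), 62% in the peak-poor stretches (47.2 to 75.4) and 11.7% elsewhere (7.17 to 17.6). The interval for the remaining sequence did not overlap the other intervals. Elsewhere, 19 of 123 siMBD2 intervals were matched (15.4%, 9.56 to 23.1) and 19 of 59 siMBD3 intervals (32.2%, 20.6 to 45.6). Both place classes rest on the peak lists themselves, so these shares are descriptions.

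**Figure D1:**
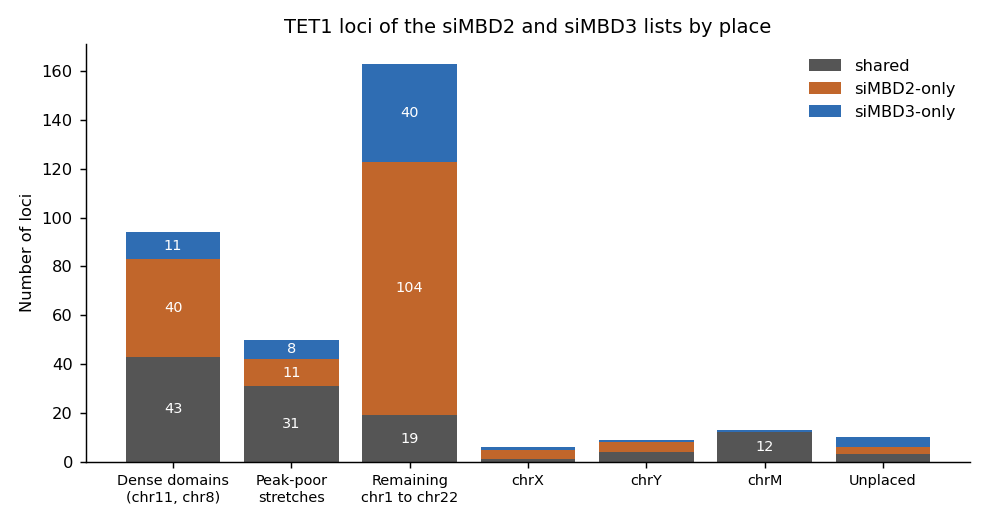
Number of loci (y axis) in each class of sequence (x axis), stacked by whether a locus was shared, siMBD2-only or siMBD3-only. Shared loci make up 43 of 94 in the dense domains, 31 of 50 in the peak-poor stretches and 19 of 163 in the remaining sequence of chromosomes 1 to 22.

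The mitochondrial genome, the sex chromosomes and the unplaced sequences were counted apart. On the mitochondrial genome 12 loci were shared, 0 were siMBD2-only and 1 was siMBD3-only, the last at 9219 to 9479 with 1.31-fold enrichment. Here 92.0% of the siMBD2 bases and 92.9% of the siMBD3 bases were common. Fold enrichment on this genome was low, from 1.16 to 1.29 in siMBD2 and from 1.11 to 1.31 in siMBD3, over recovered control backgrounds with medians of 2375 and 2930 reads in matched intervals. siNC and siCHD5 overlapped none of these 13 loci, while siCHD3 overlapped 13 and siCHD4 11. Unplaced sequences held 3 shared, 3 siMBD2-only and 4 siMBD3-only loci, the highest of the last on chromosome 9_gl000199_random at 141403 to 141626 (1.75-fold). Chromosome X held 1 shared locus, 4 siMBD2-only and 1 siMBD3-only, and the last, at 61686614 to 61686806, had 1.87-fold enrichment.

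Chromosome Y held 4 shared, 4 siMBD2-only and 1 siMBD3-only loci. The shared loci had the highest folds outside the autosomes. The locus at 58827145 to 58827539 had 21.6-fold enrichment in siMBD2 and 10.4-fold in siMBD3. The locus at 58912494 to 58912777 had 10.6-fold and 8.44-fold, and that at 58823397 to 58823775 had 10.6-fold and 7.13-fold. The siMBD2-only loci at 58888095 to 58888322, 58900607 to 58900801 and 58822092 to 58822350 reached 9.91-fold, 8.85-fold and 8.49-fold. The siMBD3-only locus at 13482124 to 13482331 had 3.30-fold. At all 9 loci siNC, siCHD5, siCHD3 and siCHD4 had no peak, a share of 0 with an upper limit of 33.6% for each list. All 9 loci lay inside the peak-poor stretch of this chromosome, 12466553 to 60152866. That stretch is defined by a lack of siNC peaks of fold 4 or more, so the absence of siNC there follows in part from the rule. Whether reads placed on this chromosome derived from it was not tested, so these folds describe reads as placed and not TET1 sites of a Y chromosome.

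The autosomal intervals of highest fold in either list mostly had a partner in the other. Ranked by fold, 9 of the 10 highest siMBD2 intervals and 10 of the 10 highest siMBD3 intervals were matched. Ranked by −log10 q the numbers were lower, at 6 of 10 in siMBD2 and 9 of 10 in siMBD3. The highest shared locus lay at chr11:35588591-35590900, with 18.3-fold enrichment in siMBD2 and 12.2-fold in siMBD3. The second lay at chr21:11186500-11186817, in a peak-poor stretch, with 15.5-fold and 11.9-fold enrichment. No peak of the other 4 lists met that chromosome 21 locus. The other 8 of the 10 highest shared loci, ranked by the lower of their folds, all lay in the chromosome 11 domain.

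Over chromosomes 1 to 22 the share of matched intervals was highest among the most significant peaks. Among siMBD2 intervals with −log10 q of 10 or more, 41 of 51 were matched (80.4%, 66.9 to 90.2), against 35 of 71 from 5 to 10 (49.3%). Below 5 the shares were 11 of 55 from 3 to 5, 5 of 47 from 2 to 3 and 6 of 29 below 2. Among siMBD3 intervals the shares were 39 of 42 at 10 or more (92.9%, 80.5 to 98.5), 29 of 36 from 5 to 10, 19 of 41 from 3 to 5, 6 of 24 from 2 to 3 and 7 of 16 below 2. Below 5 the shares did not rise steadily in either list. Outside the dense domains and peak-poor stretches, 5 of 9 siMBD2 intervals and 4 of 6 siMBD3 intervals at 10 or more were matched, with exact intervals of 21.2 to 86.3% and 22.3 to 95.7%. From 5 to 10 the numbers there were 6 of 27 and 7 of 9, so in siMBD3 the share at 10 or more (66.7%) was not the highest (77.8% from 5 to 10).

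**Figure D2:**
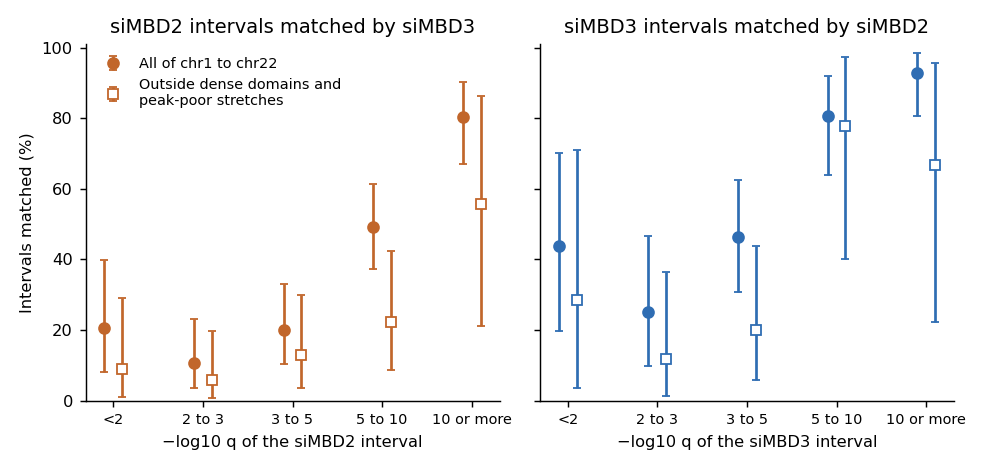
Percentage of intervals matched by the other list (y axis) against the −log10 q of the interval in its own list (x axis), for siMBD2 (left) and siMBD3 (right). Points are shares and bars exact 95% intervals. In siMBD2 the share over chromosomes 1 to 22 goes from 20.7% below 2 to 80.4% at 10 or more.

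Over chromosomes 1 to 22 unmatched intervals had lower median fold and −log10 q than matched ones, were narrower and more often had 1 summit. The median fold was 5.26 in matched and 4.60 in unmatched siMBD2 intervals, and 4.49 and 4.34 in siMBD3. These medians mix the place classes, and in the peak-poor stretches the order of the folds was the reverse, at 1.52 matched and 1.66 unmatched in siMBD2 and at 1.53 and 2.03 in siMBD3. In the remaining sequence the medians were 5.31 matched and 4.60 unmatched in siMBD2, and 4.58 and 4.36 in siMBD3. The median −log10 q was 8.85 against 3.37 in siMBD2 and 8.00 against 3.09 in siMBD3. Median width was 468.5 bp against 250 bp in siMBD2 and 362.5 bp against 246 bp in siMBD3. Of 37 siMBD2 intervals with several summits 30 were matched (81.1%), against 68 of 216 with 1 summit (31.5%). In siMBD3 these numbers were 35 of 37 and 65 of 122. The part of width in these matches was not tested.

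The reads behind the unmatched peaks were mostly few. The number of pull-down reads over a summit (pileup) and the local control level (background) were computed from fold and −log10 p. The lowest background was 1.83 reads in siMBD2 and 2.21 in siMBD3, a ratio of 1.21, so the same pileup gives a higher fold in siMBD2. On that lowest background 1 read was worth 0.354 of fold in siMBD2 and 0.311 in siMBD3. The lowest pileup called there was 11 reads in siMBD2 and 12 in siMBD3. Unmatched intervals had a median pileup of 14 reads in siMBD2 (quartiles 13 and 17) and 16 in siMBD3 (14 and 18.5), close to these lowest values. Matched intervals had medians of 24 and 26 reads, which include the peak-poor stretches with matched medians of 494 and 613 reads over high backgrounds. In the remaining sequence the medians were 16 reads matched and 14 unmatched in siMBD2, and 21 and 15 in siMBD3. Absence from a list therefore means that no peak was called at this depth, and the TET1 signal of the other siRNA at such a place was not measured by the lists.

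The siMBD2-only intervals of highest fold were spread over several chromosomes. The first lay at the end of the chromosome 11 domain, at 36171089 to 36172040, with 8.85-fold enrichment and 3 summits, and siNC (5.53-fold) and siCHD5 (6.57-fold) also had a peak there. It was followed by chr8:36348025-36348292 (7.43-fold), chr11:34858977-34859213 (7.08-fold), chr3:193548210-193548509 (7.08-fold) and chr17:41438766-41438976 (6.70-fold). None of these 4 had a peak in another list. Next came chr20:30697348-30697557 (6.64-fold, with a siNC peak of 3.62-fold). Then 4 intervals stood at 6.37-fold, each a pileup of 17 reads on the lowest background: chr11:37927808-37928054, chr3:177166116-177166552, chr8:32128135-32128939 and chr9:97714691-97715221.

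The siMBD3-only intervals are ranked by fold in their own list, and their folds are not on the scale of siMBD2. On the lowest background of each list 19 reads gave 7.08-fold in siMBD2 and 6.23-fold in siMBD3. The sets also differ in size, at 155 siMBD2-only and 59 siMBD3-only intervals, so no direction was read from their highest folds. The highest siMBD3-only interval lay at chr20:46021215-46021413 (6.23-fold, 19 reads), followed by chr11:35824143-35824341 (6.18-fold). Then 3 intervals stood at 5.92-fold: chr11:34663934-34664282, chr11:35136956-35137270 and chr18:3593148-3593362. Next were chr21:11169904-11170161 (5.61-fold), chr12:52541888-52542168 (5.30-fold) and chr8:32106987-32107266 (5.27-fold). The last were chr1:209602916-209603228 and chr20:45946955-45947168, both at 4.98-fold. Of these 10 intervals only that on chromosome 1 had a peak in another list, a siCHD5 peak of 2.89-fold.

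Few unmatched intervals were highly significant. At −log10 q of 10 or more there were 10 in siMBD2 and 3 in siMBD3, and 5 and 1 of them lay in peak-poor stretches with folds of 1.77 or less over backgrounds of 396 reads or more. All were inspected after their values were seen. The siMBD2 intervals outside such stretches, besides that on chromosome 11, lay at chr3:73159934-73160153 (4.10-fold, 123 reads), chr1:17066712-17067042 (4.75-fold, 48 reads), chr19:50601218-50601503 (4.86-fold, 41 reads) and chr7:24077-24385 (2.53-fold, 132 reads). The siMBD3 intervals outside lay at chr1:16840583-16840982 (4.85-fold, 40 reads) and chr4:68265531-68265823 (1.66-fold, 689 reads). Each of these 6 had a siCHD5 peak, and each but that on chromosome 4 had a siNC peak.

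At shared loci the enrichments of both lists ran close together. The median fold over the 93 autosomal loci was 5.21 in siMBD2 and 4.58 in siMBD3. The siMBD2 fold was the higher at 57 loci and the siMBD3 fold at 36, with a median siMBD2 to siMBD3 ratio of 1.07 (quartiles 0.957 and 1.19, range 0.742 to 1.91). The pileups, which are not scaled for depth, had a median ratio of 0.864, while the lowest background was 1.21 times as high in siMBD3. As the lists differ in background, no direction was read from the folds. Across the 93 loci Spearman's rho of the folds was 0.858 and Pearson's r of log2 fold 0.959, given as descriptions. The low folds of the peak-poor stretches carry much of this range, and both lists share the sequence and local background of each locus. Within the dense domains rho was 0.512 over 43 loci and in the remaining sequence 0.612 over 19 loci.

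**Figure D3:**
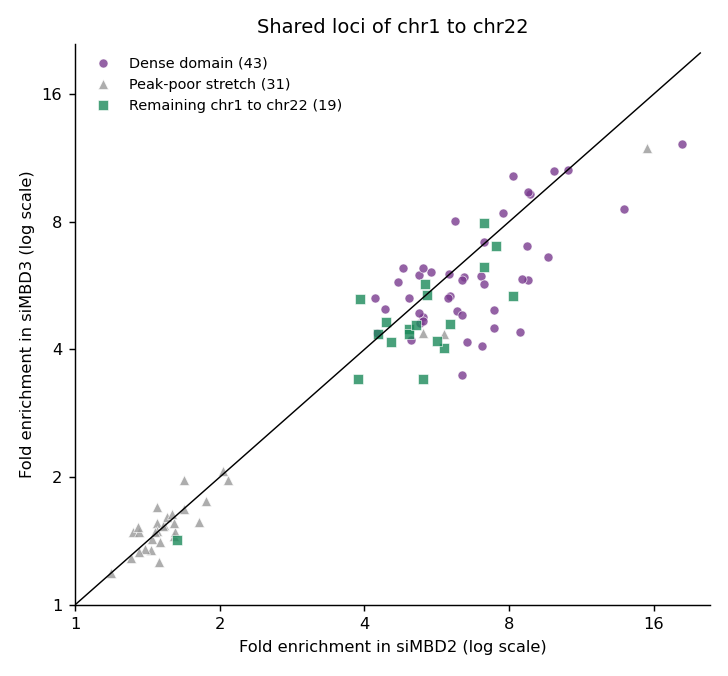
Fold enrichment of each of the 93 shared autosomal loci in siMBD2 (x axis, log scale) and siMBD3 (y axis, log scale), with the line of equal fold. Loci of the peak-poor stretches gather at the low end, with a median of 1.52 in siMBD2 and 1.53 in siMBD3, and the dense domains hold the highest folds but for the chromosome 21 locus of 15.5-fold and 11.9-fold.

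Summits of a shared locus lay nearest each other in the peak-poor stretches. The distance between the highest summit of each list had a median of 4 bp there, 33 bp in the remaining sequence and 233 bp in the dense domains (quartiles 106.5 and 417.5). Of 93 loci 49 had their summits within 100 bp. Where intervals overlapped they did so deeply: the median overlap of the 105 matched pairs was 99.8% of the shorter interval, and 52 pairs were nested. At 84 loci 1 siMBD2 interval met 1 siMBD3 interval. The pair with the fewest bases in common, 40 bp, lay at chr11:35134738-35134931 (4.25-fold in siMBD2) and 35134319 to 35134777 (5.61-fold in siMBD3). The nearest intervals left unmatched were 3 bp apart on chromosome 3, at 177166864 to 177167077 (4.26-fold in siMBD2) and 177166664 to 177166860 (4.01-fold in siMBD3).

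The chromosome 11 domain ran from 34126726 to 36172040 and held 64 siMBD2 and 47 siMBD3 intervals in 70 loci. Of these loci 31 were shared, 29 siMBD2-only and 10 siMBD3-only. This part of the short arm is the place of CD44, a cell-surface receptor for hyaluronan, and RefSeq (GRCh38.p14) lists PDHX, a component of the pyruvate dehydrogenase complex, and SLC1A2, a glutamate transporter, as neighbours. Gene names come from background knowledge of the region and from the gene order in that table, as no gene map of hg19 was used. The same order also holds ELF5, EHF, APIP, PAMR1, FJX1 and TRIM44, and which of these genes the domain covers was not computed. The highest shared locus of the domain, at 35588591 to 35590900, was not assigned to a gene. The shared locus at 35160083 to 35162353 had 8.14-fold enrichment in siMBD2 and 10.3-fold in siMBD3. That at 35164595 to 35166198 had 10.6-fold in both lists, and that at 35179241 to 35181080 had 7.79-fold and 8.38-fold. Further shared loci lay at 35132313 to 35134931 (13.8-fold in siMBD2, 8.57-fold in siMBD3), 35030254 to 35031838 (9.91-fold and 10.6-fold), 34936774 to 34937937 (8.86-fold and 9.32-fold), 34938168 to 34938691 (8.77-fold and 9.39-fold) and 35298290 to 35298670 (7.08-fold and 7.16-fold). siNC and siCHD5 each had 28 intervals in this domain, and those of siNC covered 8.41 kb of its 2045 kb. Of the 70 loci 2 met a siNC interval and 5 a siCHD5 interval. Over all 307 autosomal loci these shares were 20.5% and 27%.

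Because both lists placed peaks around the start of CD44 as background knowledge locates it, the RefSeq promoter of this gene is shown, from 250 bp before to 50 bp after the start (chr11:35138921-35139220, plus strand, GRCh38.p14). Capitals mark CpG, the dinucleotide that TET1 and MBD2 are known to act on.
CD44: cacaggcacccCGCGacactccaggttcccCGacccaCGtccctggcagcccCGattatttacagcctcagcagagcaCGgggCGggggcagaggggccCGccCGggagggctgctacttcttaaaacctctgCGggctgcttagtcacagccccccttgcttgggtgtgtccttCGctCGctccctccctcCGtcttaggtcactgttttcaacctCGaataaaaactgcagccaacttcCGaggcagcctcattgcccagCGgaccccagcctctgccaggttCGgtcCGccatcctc
It holds 18 CpG, against a median of 14 over 35116 RefSeq promoters of this length, and 44.5% of those hold as many or more. These coordinates are of another build than the peaks, and whether a summit falls in the window was not computed.

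The chromosome 8 domain was shorter, from 32083820 to 32405423, and lies in NRG1, the gene of the growth factor neuregulin 1, by the same background knowledge. It held 24 siMBD2 and 14 siMBD3 intervals in 24 loci, of which 12 were shared, 11 siMBD2-only and 1 siMBD3-only, the last at 32106987 to 32107266. siNC and siCHD5 had 0 intervals in it. In the chromosome 11 domain 37 of 47 siMBD3 intervals were matched (78.7%, 64.3 to 89.3) and in the chromosome 8 domain 13 of 14 (92.9%, 66.1 to 99.8). Of siMBD2 intervals 35 of 64 (54.7%) and 13 of 24 (54.2%) were matched.

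**Figure D4:**
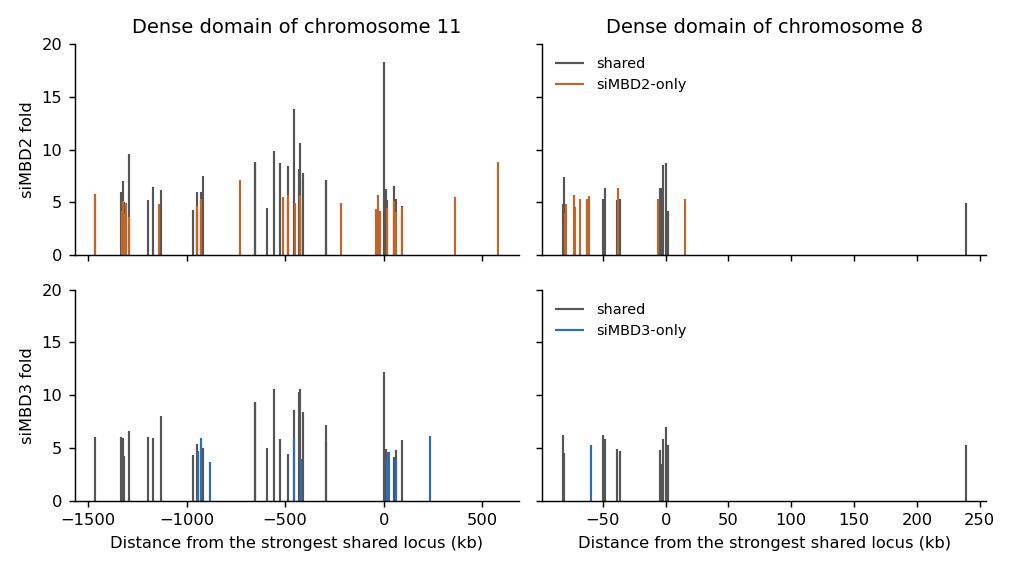
Fold enrichment (y axis) of the loci of the chromosome 11 domain (left) and the chromosome 8 domain (right) in siMBD2 (top) and siMBD3 (bottom), by distance in kb from the strongest shared locus. Grey lines are shared loci and coloured lines loci of that list only; of the 94 loci 43 are shared.

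Unmatched intervals in the dense domains lay close to the other list. A domain is by definition a chain of loci with gaps of no more than 250 kb. Closeness there follows in part from that rule, and the contrast with the remaining sequence is a description. Of 40 siMBD2-only intervals there 20 were within 1 kb of a siMBD3 interval and 38 within 100 kb. Of 104 siMBD2-only intervals in the remaining sequence 4 were within 1 kb and 70 were more than 1 Mb away or on a chromosome with no siMBD3 interval. For siMBD3-only intervals the numbers within 1 kb were 5 of 11 in the domains and 4 of 40 elsewhere, where 25 of 40 lay beyond 1 Mb. In the remaining sequence 12 of 104 siMBD2-only and 7 of 40 siMBD3-only intervals were within 10 kb of the other list.

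The 3 sets met siNC peaks in shares close to the background. siNC peaks overlapped 63 of the 307 autosomal loci, the background share of 20.5%. The shares were 25 of 93 shared loci (26.9%, 18.2 to 37.1), 28 of 155 siMBD2-only loci (18.1%, 12.4 to 25.04) and 10 of 59 siMBD3-only loci (16.9%, 8.44 to 29.0), with overlapping intervals. The order of these shares depended on the peak-poor stretches. In the peak-poor stretches 22 of 31 shared loci met siNC (71.0%, 52.0 to 85.8), at a median siNC fold of 1.41, against 30 of all 50 loci there (60%). Without those stretches 4.84% of shared loci, 16.0% of siMBD2-only and 13.7% of siMBD3-only loci met siNC. These shares mix the dense domains, where siNC met few loci of any set, with the remaining sequence. In the domains siNC met 1 of 43 shared, 1 of 40 siMBD2-only and 0 of 11 siMBD3-only loci, against 2 of all 94 (2.13%). In the remaining sequence it met 2 of 19 shared loci (10.5%, 1.30 to 33.1), against 31 of all 163 (19.0%).

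In the remaining sequence siNC met 22 of 104 siMBD2-only loci (21.2%) and 7 of 40 siMBD3-only loci (17.5%). Outside the peak-poor stretches 24 siNC intervals shared bases with siMBD2 only, 7 with siMBD3 only and 2 with both. Those met by siMBD2 only had a median siNC fold of 11.6 (range 2.15 to 44.3), those met by siMBD3 only 4.78 (2.41 to 13.1), and the 26387 met by neither 6.81. The highest siNC site on chromosomes 1 to 22, at chr17:43212531-43213330 with 44.3-fold enrichment, had a siMBD2 peak of 5.09-fold and no siMBD3 peak. Likewise met by siMBD2 alone were chr16:60818-61233 (29.0-fold in siNC, 4.60-fold in siMBD2), chr14:50328694-50329228 (24.7-fold and 6.29-fold), chr14:67826524-67827124 (22.99-fold and 5.41-fold), chr10:4857519-4858458 (20.7-fold and 4.51-fold), chr19:50601085-50601563 (17.2-fold and 4.86-fold) and chr14:25148133-25148525 (15.6-fold and 4.37-fold). The highest siNC site met by siMBD3 alone lay at chr1:16840219-16840837 (13.1-fold in siNC, 4.85-fold in siMBD3). It was followed by chr11:66206397-66206722 (10.0-fold and 4.36-fold) and chr14:63855500-63855859 (8.66-fold and 4.36-fold). The sites met by both were chr1:16992647-16993973 (7.10-fold in siNC) and chr11:35589992-35590206 (2.496-fold in siNC). The word alone compares only siMBD2 with siMBD3 here, as each of these sites also had a siCHD5 peak. At the chromosome 17 siMBD2 peak siCHD5 had 29.1-fold and siCHD4 4.84-fold enrichment. The sites were chosen after their values were seen, and the difference between the siMBD2 and siMBD3 lists was not tested.

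**Figure D5:**
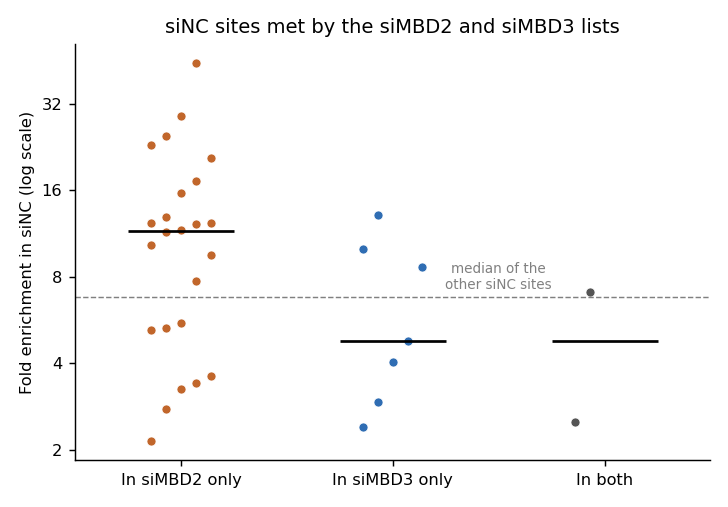
Fold enrichment in siNC (y axis, log scale) of the siNC sites outside the peak-poor stretches that share bases with siMBD2 only, siMBD3 only or both (x axis). Points are sites, black lines medians (11.6, 4.78 and 4.80), and the dashed line is the median of 6.81 over the siNC sites met by neither list.

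The lists made after siRNAs to the NuRD ATPases CHD5, CHD3 and CHD4 were compared in the same way. siCHD5 overlapped 37 of 93 shared loci (39.8%, 29.8 to 50.5), 32 of 155 siMBD2-only (20.6%, 14.6 to 27.9) and 14 of 59 siMBD3-only loci (23.7%), against a background of 27%. siCHD3 overlapped 28 shared (30.1%, 21.03 to 40.5), 9 siMBD2-only (5.81%, 2.69 to 10.7) and 5 siMBD3-only loci (8.47%), against 13.7%. siCHD4 overlapped 27 shared, 8 siMBD2-only and 6 siMBD3-only loci, against 13.4%. Most of the shared loci met by siCHD3 or siCHD4 lay in the peak-poor stretches, where 27 of 31 (87.1%, 70.2 to 96.4) met siCHD3 and 26 met siCHD4 (83.9%, 66.3 to 94.5). Over all 50 loci of these stretches 38 (76%) met siCHD3 and 36 (72%) met siCHD4, inside those intervals. Of the 37 shared loci met by siCHD5, 26 likewise lay in these stretches, at a median siCHD5 fold of 1.41. These were 26 of 31 shared loci there (83.9%, 66.3 to 94.5), against 34 of all 50 loci (68%). In the dense domains siCHD5 met 3 of 43 shared loci. In the remaining sequence siCHD3 and siCHD4 each met 1 of 19 shared loci, and in the dense domains each met 0 of 94 loci. That 1 locus was the same for both lists, chr1:566181-566683. It had 1.63-fold enrichment in siMBD2 and 1.42-fold in siMBD3, over high backgrounds of 318 and 669 reads, and no siNC or siCHD5 peak. siCHD5 met 8 of the 19 shared loci of the remaining sequence (42.1%, 20.3 to 66.5), and siNC met 2 of them. Over all 163 loci of that sequence siCHD5 met 44 (27.0%) and siNC 31 (19.0%), so the shared loci did not stand apart from this background by their intervals.

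The 19 shared loci of the remaining sequence were inspected after their values were seen. They include a pair on chromosome 22, at 18717939 to 18718226 (7.52-fold in siMBD2, 7.003-fold in siMBD3, pileups of 119 and 112 reads) and at 18883646 to 18884090 (5.87-fold and 4.04-fold, 118 and 120 reads). On chromosome 3 there were 4: at 169939920 to 169940142 (7.08-fold and 7.94-fold), 186501110 to 186501781 (7.08-fold and 6.27-fold), 187463295 to 187463610 (8.14-fold and 5.34-fold) and 189072102 to 189072495 (5.66-fold and 4.18-fold). siNC had no peak at any of these 6 loci, and siCHD5 had low peaks at 3 of them, of 2.15-fold, 3.52-fold and 3.08-fold.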

How the data were processed

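TET1 ChIP-seq peak lists of HEK293T cells given 1 of 6 siRNAs were analysed, 1 list per siRNA. MACS2 2.1.2, the tool set of bedtools 2.25.0, the aligner Bowtie2 2.3.4, SAMtools 1.9, and also deepTools 3.5.0 and FastQC 0.11.7, are named without roles, with the build hg19, per the submitters' processing notes. How the caller was set and how duplicates were handled is not stated in these notes. The fold is a deposited ratio, the authors' enrichment of pull-down over control at each summit. Significance was used as deposited: a −log10 p-value and a −log10 q-value per summit, both the authors' own. Lines with the same bounds were joined into 1 interval with its highest fold and −log10 q. Overlaps were computed with pandas 2.3.3 and scipy 1.17.1 at 1 bp or more, and matched intervals that chain by overlap formed 1 locus. Coordinates are hg19, counted from 1, unless another build is named.

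Pileup and background were recovered from fold (pseudocount 1) and −log10 p within 0.02, for 99.3% of siMBD2 and 99.5% of siMBD3 intervals. Library depth is unknown. Overlap counting and recovery were tested on simulated data. Loci named are the 10 of highest fold per set on chromosomes 1 to 22 (shared loci by their lower fold), the 3 highest elsewhere, the dense domains and the nearest pairs; sites chosen after seeing values are marked. The members and lists were chosen with earlier results of these data known. With 1 list per group no test was run. Matching rules, thresholds, list length and sequence classes were varied.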

Additional observations from a re-analysis of the deposited data

How the results depend on the processing

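Across 13 alternatives 102 values were recomputed for 8 results, and 72 of them stayed within the 95% interval of a share or within 1.5 times of a count. The share of siMBD2 intervals matched by siMBD3, 38.7% as reported, was 46.9% by summit, 28.1% with an overlap of 50% of both intervals, 49.4% within 1 kb, 56.9% within 10 kb, 51.6% at −log10 q of 5 or more, 32.1% at fold 2 or more, 52.8% with lists of equal length, 30.3% without the dense domains and 31.8% without the peak-poor stretches. The share of siMBD3 intervals matched by siMBD2, 62.9% as reported, was 71.0% by summit, 44.7% with 50% of both intervals, 70.4% within 1 kb, 75.5% within 10 kb, 79.5% at −log10 q of 5 or more, 54.1% with lists of equal length and 51.0% without the dense domains. With equal lists of 159 intervals both shares thus came close, at 52.8% and 54.1%. Shared loci numbered 60 at −log10 q of 5 or more, 60 at fold 4 or more and 50 without the dense domains. siMBD2-only intervals numbered 59 at −log10 q of 5 or more and 75 with equal lists. siMBD3-only intervals numbered 39 within 10 kb, 16 at −log10 q of 5 or more and 38 at fold 4 or more. Shared loci met siNC in 6.15% at fold 2 or more, 5% at fold 4 or more, 48% without the dense domains and 4.84% without the peak-poor stretches, and siMBD2-only intervals in 25.7% within 10 kb and 30.5% at −log10 q of 5 or more. By summit no number of shared loci, or their share over siNC, was defined. No paired analysis was possible because each group has 1 list over its pooled replicates, and for the same reason no replicate could be left out. Whether low pileups account for absences from a list was not tested.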

Other observations

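The loci were unevenly spread over the autosomes. Chromosome 11 held 84 loci, 36 of them shared, and chromosome 8 held 40, with 17 shared. Chromosome 3 came next with 30 loci, of which 4 were shared, 20 siMBD2-only and 6 siMBD3-only. Chromosome 9 held 2 shared, 12 siMBD2-only and 2 siMBD3-only loci, and chromosome 17 held 2, 11 and 1. Chromosome 19 held 4 shared, 2 siMBD2-only and 3 siMBD3-only loci. Its shared loci all lay in its peak-poor stretch, and 0 of its 5 loci in the remaining sequence were shared. Chromosomes 12, 14 and 20 had 7, 6 and 6 loci and 0 shared ones, and chromosome 13 had 0 loci in either list.

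Over all 307 autosomal loci 212 (69.1%) had no counterpart in the other 4 lists. By set this held for 53 of 93 shared loci (57.0%, 46.3 to 67.2), 117 of 155 siMBD2-only loci (75.5%, 67.9 to 82.0) and 42 of 59 siMBD3-only loci (71.2%, 57.9 to 82.2). The interval of the shared loci lay below 69.1%. Among shared loci the number was 40 of 43 in the dense domains, 10 of 19 in the remaining sequence and 3 of 31 in the peak-poor stretches. In the dense domains 89 of 94 loci met none of the other lists, in the remaining sequence 114 of 163, and in the peak-poor stretches 9 of 50. All of the other 4 lists met 25 of the 307 loci (8.14%). These were 20 of 93 shared loci, 2 of 155 siMBD2-only and 3 of 59 siMBD3-only loci, and the 20 shared loci all lay in the peak-poor stretches.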
